A study of Drosophila melanogaster with 9 samples.

Results

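The genes described here are 34 Drosophila melanogaster genes of mitosis and chromosome segregation, out of 17874 genes listed in a count table from larval hemocytes, the blood cells of the fly. They were chosen by name: a gene belongs if its symbol in the table equals one on a list of mitotic genes, and all 34 were found. The rule sets no threshold on a measured value, but the list was drawn up with earlier results of these data known. They are grouped below by function into mitotic entry, mitotic kinases, the chromosomal passenger complex, the spindle checkpoint, the central spindle and cytokinesis, spindle kinesins, the centromere and kinetochore, condensin and topoisomerase, and the separase pair.

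RNA was sequenced from hemocytes bled from larvae of the third instar in a fly model of chronic myeloid leukemia. BCR-ABL is the human fusion tyrosine kinase of that leukemia, p210 is its common long form, and T315I is the kinase-domain substitution known for resistance to imatinib. There were 3 libraries per genotype: W1118 (the control strain), UAS-BCR-ABLP210 (p210) and UAS-BCR-ABLT315I (T315I). Flies of all groups were maintained at 18 °C and kept at 25 °C for experiments, and each library pooled the bleeds of 300 larvae, so the spread between libraries is one between pools and not between animals. UAS is an upstream activating sequence that needs a GAL4 driver, which the labels do not name. W1118 carries no UAS transgene by its label, so the transgene and the rest of the strain's background cannot be told apart.

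Cells enter mitosis when the kinase Cdk1, bound to a mitotic cyclin and freed of inhibitory phosphate by the phosphatase String, becomes active. Chromosomes are then compacted by condensin and attached to spindle microtubules at kinetochores, and the spindle checkpoint holds back the anaphase-promoting complex until attachment is complete. Separase then cuts cohesin, and the central spindle and contractile ring divide the cell. Larval hemocytes known as plasmatocytes divide in circulation and in sessile patches, and the large flat lamellocytes that form under stress are generally considered to have left the cycle.

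Library totals ran from 5398746 to 9844210 counted reads in the control, 14483946 to 18160796 in p210 and 13864382 to 15717645 in T315I, and levels are given as CPM, the usual read count scaled to a common library size. A count of 3 reads corresponds to 0.170 to 0.554 CPM. Replicates spread more in the control (biological coefficient of variation 0.401) than among p210 (0.199) or T315I libraries (0.131). The hemocyte label was read against marker lists. Plasmatocyte markers summed to 27497 to 31754 CPM in the control, 32125 to 50330 CPM in p210 and 37186 to 47671 CPM in T315I. The 13 markers did not move together: in p210, 5 were higher, 1 was lower and 7 were not called, with log2 fold changes from -2.51 to 1.70 and a median of 0.20, and in T315I 4 were higher, 1 was lower and 8 were not called. Markers of fat body, the larval storage tissue, summed to 39174 to 98675 CPM in the control, 4325 to 6233 CPM in p210 and 8053 to 12252 CPM in T315I. Every control library thus had a higher fat body sum than every transgenic library. In bulk RNA of this kind, fewer cells of a type and less RNA per cell cannot be told apart.

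Many of the 34 genes were higher with a transgene than in the control, led by stg, tum, pav and aurB, and none was called lower. In p210, 20 of the 34 were higher and 14 were not called. The adjusted p had to be under 0.05 in edgeR's quasi-likelihood test over 9978 genes. The background in that comparison was 26.9% of all tested genes called higher and 30.3% called lower. In T315I, 17 of the 34 were higher and none was lower, against a background of 20.5% called higher and 28.7% called lower. At an unadjusted p under 0.05, 0 of the 34 were lower in p210 and 1 in T315I, and DESeq2 called pim lower in each. The median log2 fold change of the 34 was 0.65 in p210 and 0.44 in T315I, where the median of all tested genes was 0.05 and -0.02. The difference reached 2-fold for 11 of the 20 genes in p210 and 9 of the 17 in T315I. Both comparisons use the same 3 control libraries, so they are not independent of each other.

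Those counts are relative to the scaling. With the trimmed mean of M-values (TMM), which takes most genes as unchanged, 47.0% of all called genes were higher in p210 and 41.7% in T315I. When libraries were scaled to the summed plasmatocyte markers instead, which themselves differed between groups, these shares were 12.9% and 10.4%, the median of all tested genes was -0.43 and -0.48, and 8 and 9 of the 34 genes were called higher. With upper-quartile scaling the shares were 36.0% and 34.5%, and 18 and 15 of the genes were higher. These shares are of called genes. Of all 9978 tested genes, 519 in p210 and 406 in T315I were higher with plasmatocyte scaling. With upper-quartile scaling 1865 and 1621 were higher. The median of the 34 genes minus that of all tested genes was 0.60 in p210 and 0.46 in T315I. A change of scaling shifts all genes alike and so leaves this difference nearly as it is. Every fold change below is with TMM unless another scaling is named.

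The summed level of the 34 genes was 1455, 1816 and 2409 CPM in control libraries 1, 2 and 3. It was 3094, 3324 and 3332 CPM in p210 and 3040, 3032 and 2930 CPM in T315I. With TMM scaling, all 6 transgenic libraries lay above the highest control library. Relative to plasmatocyte markers this order was not kept by every library. Control library 3 had 2409 CPM beside 31754 CPM of these markers, and p210 library 3 had 3332 CPM beside 50330 CPM. The means were 1893 ± 481 CPM in the control, 3250 ± 135 CPM in p210 and 3001 ± 60.9 CPM in T315I (SD, n = 3 each). Mean sums of the plasmatocyte markers were 29528 CPM in the control, 42957 CPM in p210 and 41157 CPM in T315I.

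**Figure D1:**
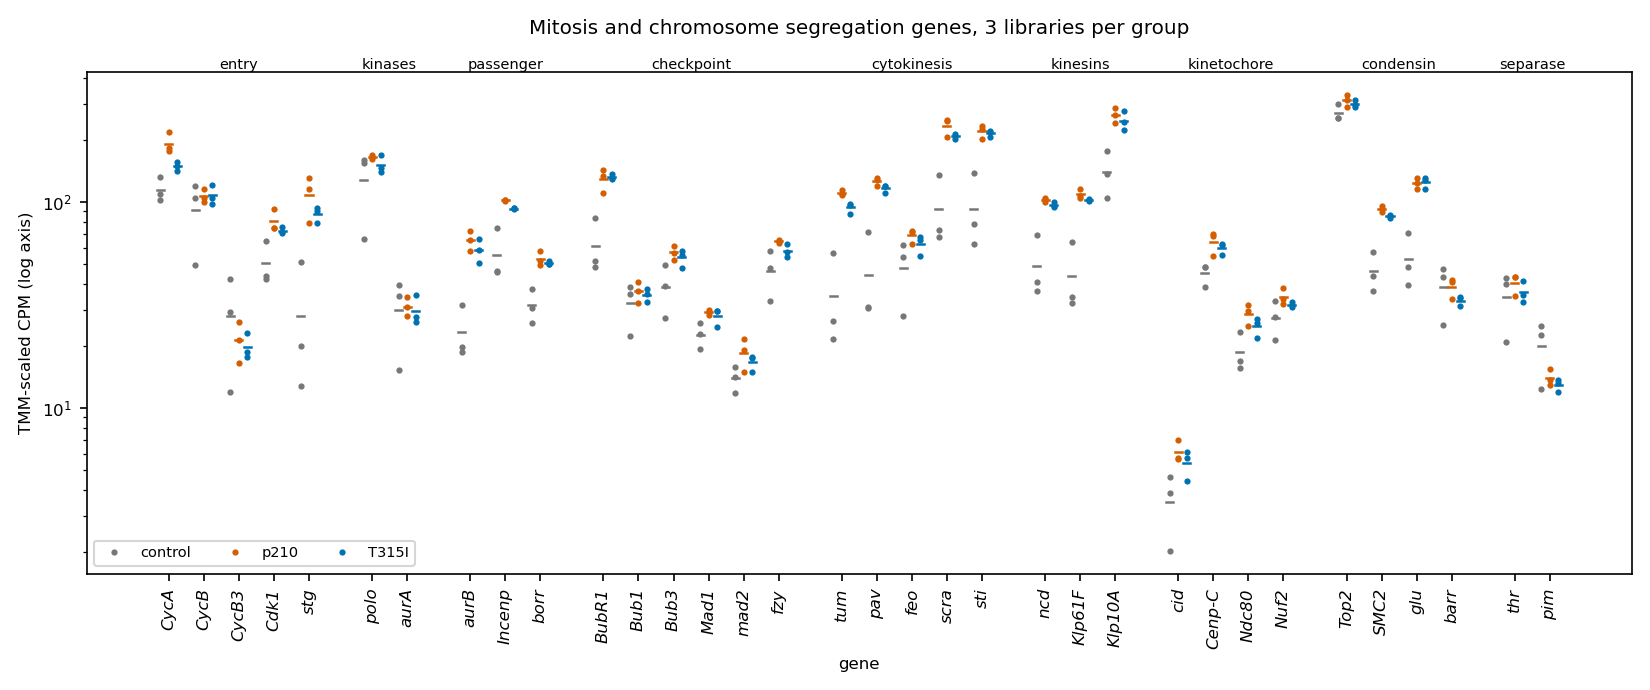
TMM-scaled CPM (log axis) of each of the 34 genes in every library, with points for single libraries, short bars for the mean of 3, and genes ordered by function. Control points (grey) lie below both transgenic groups for genes such as aurB (18.6 to 31.5 CPM against 57.8 to 72.5 in p210) and overlap them for genes such as Top2 and thr.

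Per kilobase of exon, the genes were ordered by level within each group. In the control Top2 stood first at 51.5 ± 4.96 CPM per kb, followed by Cdk1 at 46.5 ± 11.7, polo at 42.6 ± 17.7 and CycA at 39.2 ± 5.28 (SD, n = 3). The last gene was cid at 3.47 ± 1.32, and its gap to Bub1 above it was the only one in the control order larger than both neighbours' SDs. In p210 the order opened with Cdk1 at 74.5 ± 9.36 CPM per kb, CycA at 65.7 ± 7.88, Top2 at 59.4 ± 4.03, polo at 55.6 ± 1.29 and aurB at 55.1 ± 6.23, with no gap between neighbours beyond their SDs among these. In T315I it opened with Cdk1 at 67.0 ± 2.17 CPM per kb, which exceeded Top2 at 57.2 ± 2.48 by more than either SD. The kinase gene aurB stood at rank 16 in the control, at 19.7 CPM per kb, and at rank 5 in both transgenic groups.

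Among the genes of mitotic entry, the phosphatase gene stg and the kinase gene Cdk1 were higher with both transgenes, and of the mitotic cyclins only CycA was called. String, encoded by stg (3R:29251826-29255800 in dm6), removes the inhibitory phosphates from Cdk1 and is the usual trigger of mitosis in the fly. It had 19.9, 12.8 and 51.0 CPM in control libraries 1, 2 and 3, then 78.8, 115 and 130 CPM in p210 and 93.2, 90.8 and 78.9 CPM in T315I. The groups did not overlap, and control library 3 was well above the other control libraries. The log2 fold change was 1.94 ± 0.43 in p210 (SE, adjusted p = 0.00452) and 1.64 ± 0.43 in T315I (adjusted p = 0.0128), the largest of the 34 in each comparison. Without control library 3 these values were 2.71 and 2.44.

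Cdk1 (2L:10384739-10386262), the kinase itself, had 42.5, 43.6 and 64.9 CPM in the control, 92.3, 75.1 and 74.4 CPM in p210 and 75.2, 71.0 and 71.2 CPM in T315I. All transgenic libraries were above all control libraries. Its log2 fold change was 0.68 ± 0.17 in p210 (adjusted p = 0.00849) and 0.52 in T315I (adjusted p = 0.0310), and the T315I call was lost without control library 2 (0.42, adjusted p = 0.0980) or without any 1 of the T315I libraries (0.52 to 0.58). CycA (3L:11826719-11833578), the cyclin that is essential for mitosis in the fly embryo, had 102, 109 and 132 CPM in the control, 182, 218 and 176 CPM in p210 and 156, 149 and 142 CPM in T315I. The 3 groups formed 3 separate ranges, with T315I between the control and p210. CycA's log2 fold change was 0.74 ± 0.13 in p210 (adjusted p = 0.00203) and 0.38 ± 0.13 in T315I (adjusted p = 0.0392). The T315I call was lost without control library 1 (0.37) or 2 (0.35) or any 1 of the T315I libraries (0.37 to 0.45), and with plasmatocyte scaling the value turned to -0.07.

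The B-type cyclins were not called. CycB had 49.7, 119 and 104 CPM in the control, 100, 104 and 116 CPM in p210 and 121, 104 and 97.9 CPM in T315I. Control library 1 was low and the other control libraries lay within or above the transgenic range. The log2 fold change was 0.23 ± 0.26 in p210 with a 95% interval of -0.37 to 0.82, and 0.24 in T315I. CycB3, the cyclin that acts in anaphase, ranged from 12.0 to 42.4 CPM in the control and from 16.6 to 26.1 CPM in p210, with a log2 fold change of -0.40 ± 0.37 (adjusted p = 0.379). Its value in T315I was -0.51 (adjusted p = 0.280). Without control library 1 it was called lower in both, at -0.69 and -0.80.

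The kinase genes polo and aurA, whose products act at centrosomes and in spindle assembly, were not called in either comparison. polo had 66.3, 155 and 160 CPM in the control, 169, 162 and 166 CPM in p210 and 169, 146 and 139 CPM in T315I. Its low control library 1 set most of the spread, and control libraries 2 and 3 reached into the T315I range. The log2 fold change of polo was 0.38 in p210 (95% interval -0.23 to 0.99) and 0.25 in T315I. For aurA the control libraries gave 15.3, 34.8 and 39.4 CPM, p210 gave 34.4, 28.0 and 30.8 CPM and T315I gave 35.2, 27.5 and 26.0 CPM. The groups overlapped, and its log2 fold change was 0.05 ± 0.29 in p210 (95% interval -0.61 to 0.70).

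All 3 genes of the chromosomal passenger complex were higher with both transgenes. This complex joins the kinase Aurora B to its scaffold and corrects faulty kinetochore attachments before moving to the central spindle. Its kinase gene aurB (2L:10856797-10858094) had 18.6, 19.7 and 31.5 CPM in the control, 72.5, 57.8 and 65.4 CPM in p210 and 66.3, 58.7 and 50.4 CPM in T315I. The lowest transgenic library was above the highest control library. The log2 fold change of aurB was 1.48 ± 0.21 in p210 (adjusted p = 0.00130, the lowest of the 34 there) and 1.32 ± 0.21 in T315I (adjusted p = 0.00342). borr, which encodes Borealin, had 25.8, 30.7 and 37.9 CPM in the control, 58.1, 51.6 and 49.4 CPM in p210 and 51.4, 50.2 and 50.2 CPM in T315I, again without overlap. It changed by 0.75 ± 0.15 in p210 (adjusted p = 0.00266) and 0.68 in T315I (adjusted p = 0.00683). Incenp, the scaffold, changed by 0.87 ± 0.18 and 0.74, with adjusted p = 0.00331 and 0.0100. Whether aurB changed more than its paralog aurA was not tested.

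Of the 5 spindle checkpoint genes, BubR1 was higher with both transgenes, and Bub3 with p210. Beside them, 26.9% of all tested genes were called higher in p210 and 20.5% in T315I. Nothing particular to the checkpoint is read from the number of these calls. BubR1 (2R:5969099-5974385), a component of the mitotic checkpoint complex, had 48.4, 51.4 and 83.4 CPM in the control, 111, 143 and 134 CPM in p210 and 129, 131 and 137 CPM in T315I. No transgenic library fell to the control range. Its log2 fold change was 1.08 ± 0.20 in p210 (adjusted p = 0.00230) and 1.11 in T315I (adjusted p = 0.00447). Bub3, which brings BubR1 and Bub1 to kinetochores, had 39.3, 27.3 and 49.2 CPM in the control, 61.3, 52.5 and 56.7 CPM in p210 and 55.4, 57.9 and 48.0 CPM in T315I. The T315I range overlapped the top of the control range. Bub3 changed by 0.56 ± 0.19 in p210 (adjusted p = 0.0337), and its value in T315I was 0.48 (adjusted p = 0.0673). The p210 call was lost without control library 2 (0.36), p210 library 1 (0.52) or p210 library 3 (0.57), and without control library 3 Bub3 passed in T315I (0.70).

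Bub1, Mad1 and mad2 had small positive values that did not pass. Bub1 had log2 fold changes of 0.18 and 0.13, Mad1 of 0.36 and 0.30, and mad2 of 0.40 and 0.25 in p210 and T315I. Mad1 passed without control library 3 (0.43 and 0.41) and, in p210, without control library 1 (0.41), and mad2 passed in p210 without p210 library 3 (0.55). fzy, the Cdc20 protein that the checkpoint restrains, was called in p210 at 0.47 ± 0.18 (adjusted p = 0.0462) and had 0.32 in T315I (adjusted p = 0.167). The p210 call of fzy was lost without control library 2, T315I library 1 or any 1 of the p210 libraries (0.49 to 0.51), and fzy passed in T315I without control library 3 (0.52). With plasmatocyte scaling its values turned to -0.01 and -0.13.

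The central spindle and cytokinesis genes held the largest median change of the functions with more than 2 members, 1.35 in p210 and 1.21 in T315I, and 4 of 5 were higher in each comparison. tum (2R:13856150-13858689) and pav encode the RacGAP and the kinesin of centralspindlin, which positions the contractile ring. tum had 21.6, 26.4 and 56.3 CPM in the control, 108, 109 and 114 CPM in p210 and 97.9, 97.0 and 87.5 CPM in T315I. Control library 3 was more than 2-fold above the other control libraries and still below every transgenic library. The log2 fold change of tum was 1.66 ± 0.30 in p210 (adjusted p = 0.00201) and 1.43 ± 0.30 in T315I (adjusted p = 0.00616), and pav was 2.83-fold higher in p210 (adjusted p = 0.00251) and 2.62-fold higher in T315I (adjusted p = 0.00617).

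scra (2R:7590119-7595242) encodes Anillin, which links the contractile ring to the membrane. Its levels were 73.3, 67.7 and 135 CPM in the control, 206, 247 and 251 CPM in p210 and 208, 213 and 203 CPM in T315I. The groups were apart, with control library 3 again the highest of the control. scra changed by 1.35 ± 0.24 on the log2 scale in p210 (adjusted p = 0.00198) and 1.17 in T315I (adjusted p = 0.00591). sti, the Citron kinase of late cytokinesis, changed by 1.24 ± 0.25 (adjusted p = 0.00295) and 1.21 (adjusted p = 0.00600). feo, the microtubule bundler PRC1 of the central spindle, was the member not called, with 0.51 ± 0.25 in p210 (adjusted p = 0.101) and 0.37 in T315I (adjusted p = 0.236). It passed in p210 without control library 3 (0.70).

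**Figure D2:**
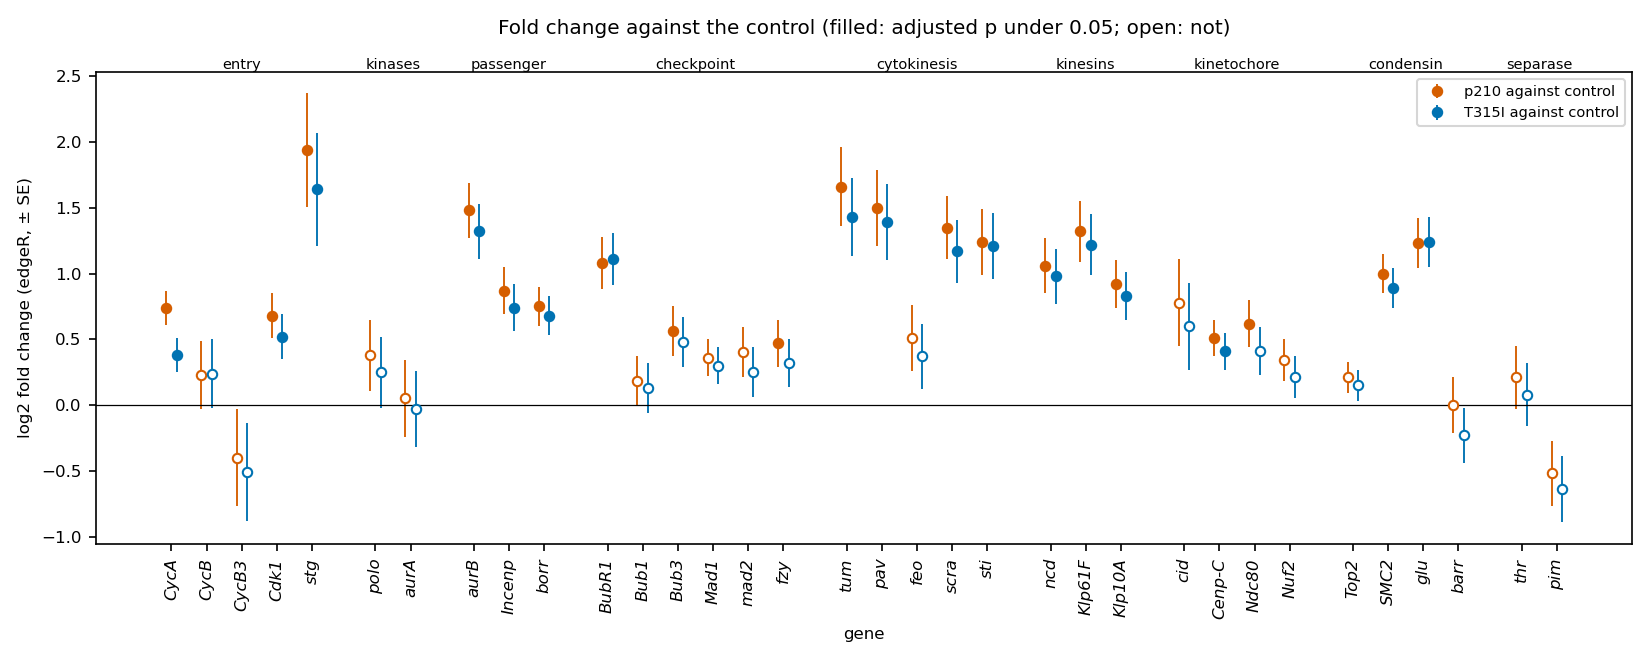
Log2 fold change of each gene against the control with its SE (3 libraries per group, edgeR with TMM scaling), for p210 (orange) and T315I (blue). Filled points passed an adjusted p under 0.05 and open points did not; the filled points run from 0.47 (fzy) to 1.94 (stg) in p210, and CycB3 and pim have the lowest values.

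All 3 spindle kinesin genes were higher with both transgenes. Klp61F (3L:1241568-1245910), the kinesin-5 motor that pushes spindle poles apart, had 32.3, 34.6 and 63.6 CPM in the control, 107, 104 and 116 CPM in p210 and 102, 101 and 103 CPM in T315I. Its groups did not overlap and the T315I libraries were nearly level. Klp61F changed by 1.32 ± 0.23 in p210 (adjusted p = 0.00181) and 1.22 in T315I (adjusted p = 0.00474). ncd, a minus-end motor that focuses spindle poles, had 40.8, 37.1 and 69.3 CPM in the control, 105, 103 and 100 CPM in p210 and 95.6, 100 and 94.6 CPM in T315I. The order of groups was that of Klp61F, and ncd changed by 1.06 ± 0.21 (adjusted p = 0.00267) and 0.98 (adjusted p = 0.00662). Klp10A, a microtubule-depolymerising kinesin-13, changed by 0.92 ± 0.18 (adjusted p = 0.00296) and 0.83 (adjusted p = 0.00761).

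Of the 4 centromere and kinetochore genes, Cenp-C and Ndc80 were higher in p210 and Cenp-C in T315I, with medians over the 4 of 0.56 and 0.41. The shares of all tested genes called higher were 26.9% in p210 and 20.5% in T315I. Nothing particular to the kinetochore is read from the number of these calls. Cenp-C, which joins centromeric chromatin to the outer kinetochore, had 38.6, 48.5 and 48.1 CPM in the control, 54.4, 68.1 and 70.2 CPM in p210 and 55.5, 61.9 and 62.6 CPM in T315I. The ranges were apart by a narrow margin. Cenp-C changed by 0.51 ± 0.14 in p210 (adjusted p = 0.0121) and 0.41 in T315I (adjusted p = 0.0354), and with plasmatocyte scaling these values turned to -0.01 and -0.06. The p210 call was also lost with a filter of 5 CPM in 3 libraries (0.32) or with only the 2 groups compared (0.45). The T315I call was lost without control library 1 (0.37), T315I library 2 (0.43) or T315I library 3 (0.42). Ndc80, the microtubule-binding subunit of the outer kinetochore, had 17.0, 15.6 and 23.5 CPM in the control, 29.7, 31.5 and 25.0 CPM in p210 and 27.1, 25.9 and 21.8 CPM in T315I. The T315I range reached below the highest control library. Its change was 0.62 ± 0.18 in p210 (adjusted p = 0.0177), and its value in T315I was 0.41 (adjusted p = 0.0917). The p210 call was lost without control library 2 (0.50) or p210 library 2 (0.58), and without control library 3 Ndc80 passed in T315I (0.62).

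cid (2R:13485617-13486631), the histone H3 variant that marks fly centromeres, was the least abundant of the genes. It had 2.03, 4.64 and 3.88 CPM in the control, 7.01, 5.74 and 5.64 CPM in p210 and 5.72, 6.12 and 4.44 CPM in T315I. Control library 1 was low, and T315I overlapped the control. Its values of 0.78 ± 0.33 in p210 (adjusted p = 0.0710) and 0.60 in T315I (adjusted p = 0.163) did not pass, and it passed in p210 without control library 2 (1.01). Nuf2, the partner of Ndc80, had 0.34 ± 0.16 and 0.21, also not called, and passed in p210 without control library 3 (0.45).

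Among condensin and topoisomerase genes, both SMC subunits of condensin were higher, and Top2 and the kleisin gene barr were not called. SMC2 (2R:14848621-14852653) had 43.9, 37.1 and 57.0 CPM in the control, 89.2, 95.2 and 92.2 CPM in p210 and 86.0, 83.8 and 85.9 CPM in T315I. glu (2L:16733617-16738388), which encodes SMC4, had 48.2, 39.5 and 70.3 CPM in the control, 116, 131 and 124 CPM in p210 and 116, 130 and 128 CPM in T315I. For each of these genes the transgenic libraries lay in a tight range above the control. SMC2 changed by 1.00 ± 0.15 in p210 (adjusted p = 0.00140) and 0.89 in T315I (adjusted p = 0.00378). glu changed by 1.23 ± 0.19 (adjusted p = 0.00149) and 1.24 ± 0.19 (adjusted p = 0.00318), and was the gene with the lowest adjusted p in T315I.

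Top2 (2L:19447365-19453490), which untangles sister chromatids, had 256, 254 and 300 CPM in the control, 289, 331 and 314 CPM in p210 and 289, 295 and 314 CPM in T315I. The groups overlapped at the highest control library. Its log2 fold change was 0.21 ± 0.12 in p210 with a 95% interval of -0.06 to 0.47, and 0.15 in T315I, so these libraries allow a difference well under 2-fold. barr, the condensin I kleisin that binds the SMC pair, ranged from 25.3 to 47.4 CPM in the control and from 33.9 to 41.9 CPM in p210. Its value was -0.00 ± 0.21 in p210 (95% interval -0.47 to 0.47) and -0.23 in T315I, where it was called lower without control library 1 (-0.39).

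The separase gene thr and the securin gene pim were not called in either comparison. Securin inhibits separase until the anaphase-promoting complex destroys it. thr had 21.0, 39.9 and 42.6 CPM in the control, 34.8, 43.0 and 43.1 CPM in p210 and 35.5, 32.8 and 41.4 CPM in T315I. The groups overlapped, with a value of 0.21 in p210 (95% interval -0.32 to 0.75). pim (2L:10362989-10364092) had 12.4, 25.1 and 22.7 CPM in the control, 15.4, 13.7 and 13.0 CPM in p210 and 13.6, 13.2 and 12.0 CPM in T315I. Control library 1 lay in the transgenic range, and the other control libraries were above it. pim had the lowest value of the 34 in both comparisons, -0.52 ± 0.25 in p210 (adjusted p = 0.0971) and -0.64 ± 0.25 in T315I (adjusted p = 0.0545). Without control library 1 it was lower at -0.71 (adjusted p = 0.00418) and -0.82 (adjusted p = 0.00269), and it was also called lower under several other settings.

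Levels of the 34 genes also varied among the control libraries, and in another way for called than for uncalled genes. For the 20 genes higher in p210, the level in control library 2 divided by that in library 1 had a median of 1.04 (0.643 to 1.45), and library 3 divided by library 1 a median of 1.69 (1.25 to 2.61). For the 14 genes not called, these ratios had medians of 1.92 (0.847 to 3.53) and 1.87 (1.13 to 2.58). At the median, then, called genes were level between control libraries 1 and 2, while most uncalled genes were higher in library 2. These libraries also enter the test that made the calls, so the ratios are a description.

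Several marker lists moved between the same libraries. Germline and spermatocyte markers, from tissue in which meiotic and mitotic genes are active, summed to 177, 765 and 503 CPM in control libraries 1, 2 and 3, ratios of 4.32 and 2.84 to library 1. They summed to 113 to 143 CPM in p210 and 165 to 201 CPM in T315I. Of the 13 listed, 11 were tested, and 9 were lower and 2 higher in p210, 8 lower and 1 higher in T315I. These and the marker counts below stand beside 30.3% of all tested genes lower and 26.9% higher in p210. In T315I these shares were 28.7% and 20.5%. The spermatid gene Mst77F, which also lies within another gene, was listed at 0 in all libraries, and betaTub85D, the testis beta tubulin, had 95.1, 472 and 264 CPM in the control. Their part in the values of CycB, CycB3, polo, aurA and pim was not tested.

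Lamellocyte markers summed to 3613, 3402 and 9011 CPM in the control, where library 3 was also the highest for 19 of the 20 genes called in p210 and 8 of the 14 not called. They summed to 17129 to 23043 CPM in p210 and 18580 to 21426 CPM in T315I, and 7 of the 8 tested markers were higher in each comparison. The lamellocyte marker atilla was listed at 0 throughout, as were nearly all genes that lie within another gene in this table. Markers of fat body were lower for 9 of 9 genes in p210 and 8 of 9 in T315I, those of muscle for 10 of 10 in each, and those of cuticle for 4 of 4 in each. Muscle markers summed to 1377 to 3085 CPM in the control and at most 448 CPM in the transgenic libraries. Neuroblast and neuron markers summed to 14.8, 16.7 and 27.3 CPM in the control, also highest in library 3. They summed to 49.9 to 66.5 CPM in p210 and 53.0 to 58.4 CPM in T315I. Only 2 of these 7 were tested, and both were higher in each comparison. Crystal cell, blood progenitor and imaginal disc markers had their highest control sum in library 1. The part of cell make-up in the changes of the 34 genes was not tested.

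**Figure D3:**
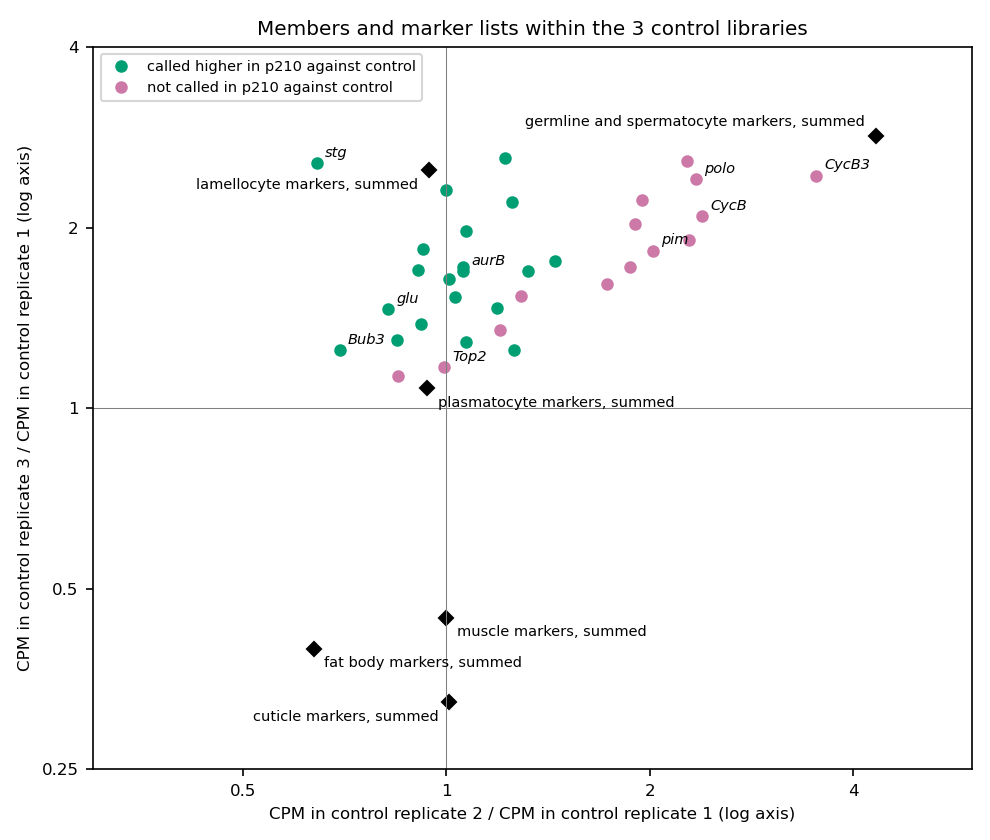
Level in control library 2 over control library 1 (horizontal, log axis) against level in control library 3 over control library 1 (vertical, log axis) for each of the 34 genes (circles) and for summed marker lists (diamonds). Genes called higher in p210 (green) centre near 1.04 horizontally, most uncalled genes (pink) lie further right, and the germline and spermatocyte markers lie furthest right at 4.32.

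None of the 34 genes was called between T315I and p210. edgeR's quasi-likelihood test gave an adjusted p of 0.999 for every one. Over all tested genes, 0% were called higher and 0.0100% lower in this comparison. DESeq2 and limma-voom also called 0 of the 34 genes, and DESeq2 called 9 genes higher and 26 lower over the whole table. At an unadjusted p under 0.05, none of the 34 was higher and 1 was lower, namely CycA. The log2 fold changes of the 34 ran from -0.36 to 0.03 with a median of -0.12, where the median of all tested genes was -0.03, and 31 of the 34 were below 0. CycA had the lowest value, -0.36, with a 95% interval of -0.66 to -0.07 before any adjustment and an unadjusted p of 0.0216.

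A missed threshold does not show that the transgenes act alike, and the intervals give what these libraries allow. The interval for aurB ran from -0.61 to 0.29, for Top2 from -0.32 to 0.21, for glu from -0.41 to 0.43 and for BubR1 from -0.41 to 0.48. It was widest for stg, from -1.21 to 0.62. For genes called in p210 and not in T315I, the interval of T315I against p210 was -0.51 to 0.35 for Bub3, -0.55 to 0.24 for fzy and -0.61 to 0.20 for Ndc80, so no difference between the transgenes was shown for them.

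**Figure D4:**
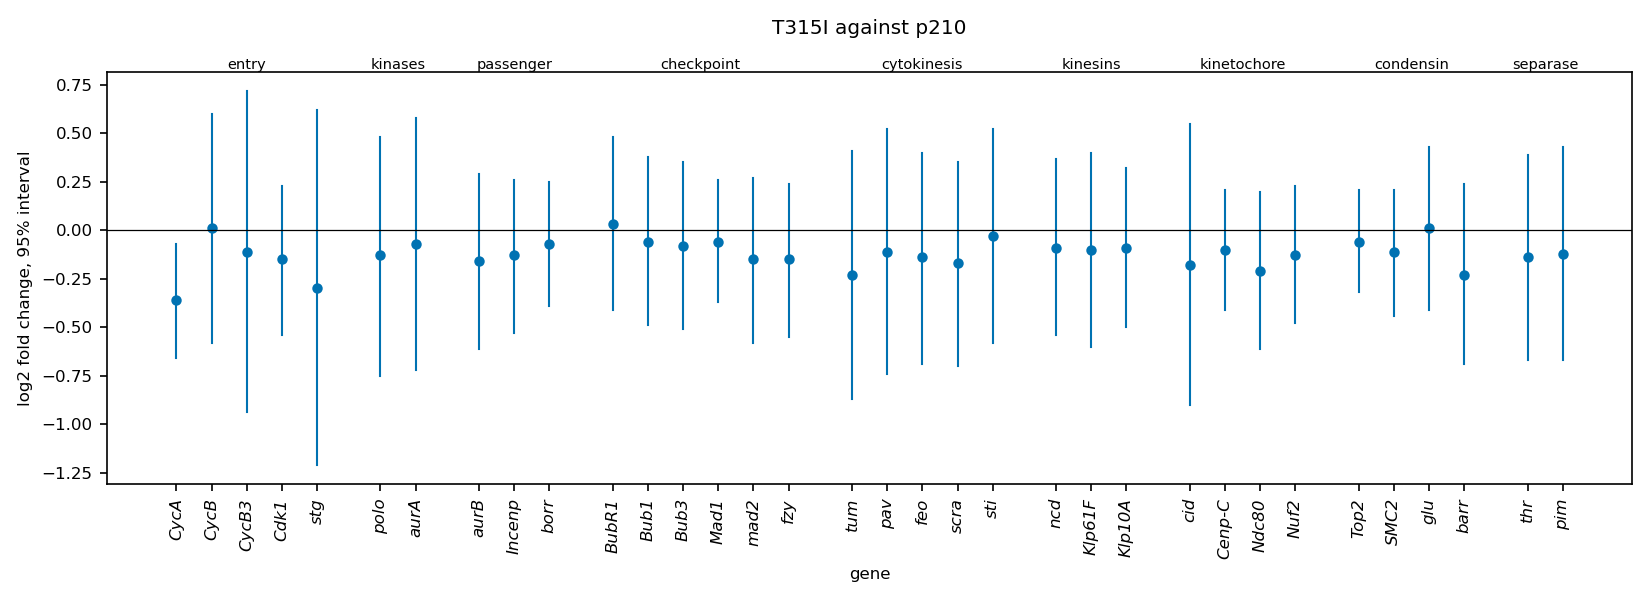
Log2 fold change of each gene in T315I against p210 (points) with its 95% interval (lines), from 3 libraries per group. Points lie between -0.36 (CycA) and 0.03 (BubR1), and the interval of CycA alone does not include 0.

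Scaling to plasmatocyte markers lowered the values of all 34 genes against the control, and 20 in p210 and 17 in T315I stayed above 0, against 31 and 30 with TMM. The genes called higher in p210 with that scaling were stg, aurB, tum, pav, scra, sti, Klp61F and glu. In T315I they were stg, aurB, BubR1, tum, pav, scra, sti, Klp61F and glu. In their own comparison these genes also passed in every other setting tried, including those that left out 1 library. pim was called lower in both comparisons with plasmatocyte scaling.

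**Figure D5:**
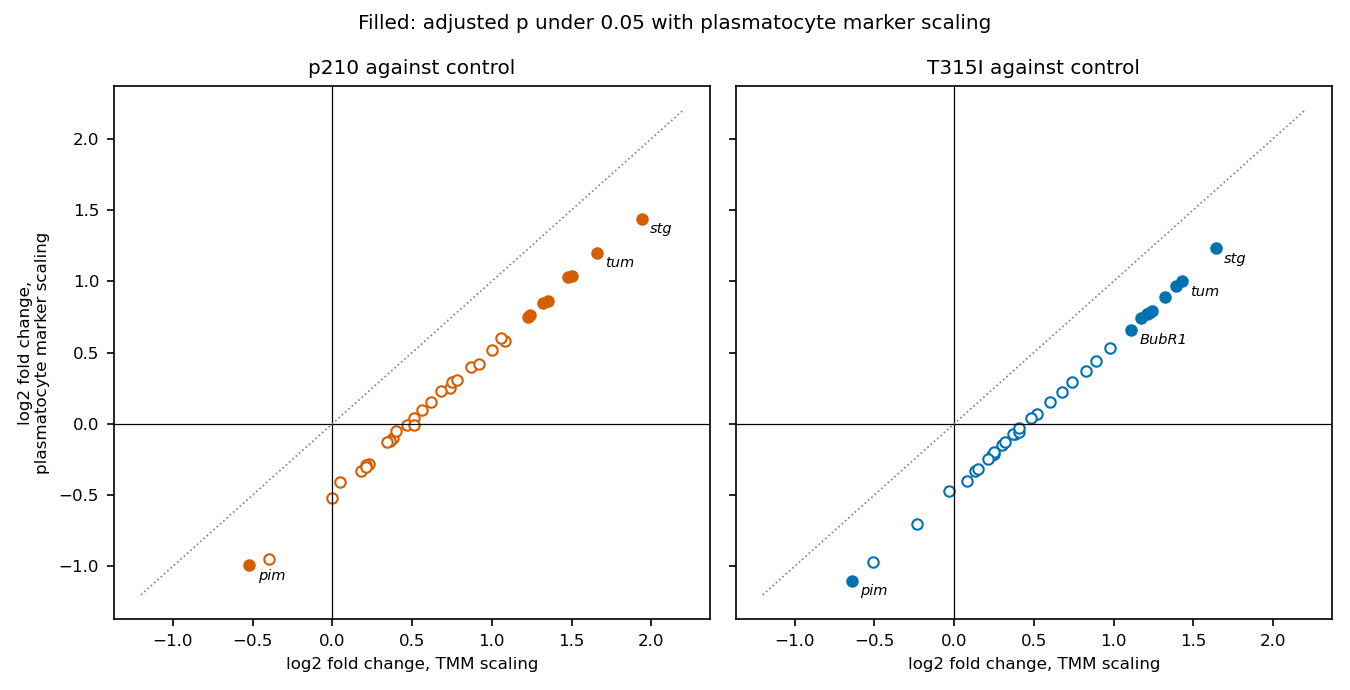
Log2 fold change of the 34 genes with TMM scaling (horizontal) against that with plasmatocyte marker scaling (vertical), for p210 (left) and T315I (right); the dotted line marks equal values and filled points passed an adjusted p under 0.05 with plasmatocyte scaling. The filled points are 8 genes above 0 and pim below 0 on the left, and 9 above 0 and pim on the right.

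The wider mitotic machinery was read from 91 further genes, of which 89 were tested. In p210, 46 were higher and 6 lower with a median log2 fold change of 0.46, beside 26.9% of all tested genes higher, 30.3% lower and a median of 0.05. In T315I, 35 were higher and 5 lower with a median of 0.40, beside 20.5% higher, 28.7% lower and a median of -0.02. Cohesin, which holds sister chromatids together, had 10 of 12 genes higher in p210 and 8 in T315I, such as eco at 0.89 and 0.83, SMC3 at 0.92 and 0.75, and SA at 0.83 and 0.79. Other condensin subunits were higher for 3 of 4 genes in p210, led by Cap-D2 at 1.24. The augmin complex, which nucleates microtubules within the spindle, had 6 of 8 genes higher in p210, including dgt6 at 1.02 and msd1 at 1.07. Of other cytokinesis genes, 7 of 7 were higher in p210 and 4 in T315I, with dia at 0.53 and 0.54 and pnut at 0.77 and 0.76. Values of these 7 ran from 0.27 to 2.95 in p210 and from 0.13 to 2.54 in T315I.

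The counts of the next groups stand beside 26.9% of all tested genes called higher in p210 and 20.5% in T315I, and nothing particular to a group is read from them. Centrosome and spindle microtubule genes were higher for 7 of 18 in p210 and 6 in T315I, with the microtubule polymerase gene msps at 1.09 and 0.96. Other kinetochore and checkpoint genes were higher for 6 of 13 and 3 of 13, with rod at 0.85 and 0.86 and Zw10 at 0.67 and 0.62. The anaphase-promoting complex and its partners had 2 of 11 higher and 2 lower in p210, namely shtd at 0.69, fzr at 0.59, Rca1 at -0.67 and vih at -0.58. Of 9 further Cdk1 regulators, 3 were higher and 1 lower in each comparison. Myt1 had 0.61 and 0.67, and Cks30A had 0.91 and 0.76.

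The 6 further genes lower in p210 were Rca1, vih, twe, Klp59C, cana and mei-S332. twe, the Cdc25 phosphatase of meiosis and the paralog of stg, had 26.4, 81.1 and 56.1 CPM in the control, 16.9, 14.8 and 17.7 CPM in p210 and 24.2, 17.2 and 19.8 CPM in T315I. It fell by 1.73 in p210 (adjusted p = 0.00263) and by 1.43 in T315I (adjusted p = 0.00892) on the log2 scale. Klp59C, a kinesin-13 like Klp10A, had 16.1, 71.1 and 39.9 CPM in the control, 5.06 ± 0.815 CPM in p210 and 9.54 ± 2.28 CPM in T315I (SD, n = 3), and fell by 3.07 and by 2.16. cana, a CENP-E-type kinesin, fell by 1.34 and by 1.19, while the related gene cmet rose by 1.06 and 1.04. mei-S332, the shugoshin that protects cohesin, fell by 1.01 and by 0.99. For mei-S332 and vih the control libraries overlapped those of both transgenes. In the control all 6 of these genes followed the order of the germline marker sum, with library 2 highest and library 1 lowest. Of the 34 genes, library 2 was also highest for 1 of the 20 called in p210 and 6 of the 14 not called. The part of germline RNA in the change of the 6 lower genes was not tested.

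DNA replication genes served as a comparison list for S phase. Of 29 listed, 27 were tested; 24 were higher in p210 and 22 in T315I, and the medians were 0.97 and 0.85. Over all tested genes, 26.9% and 20.5% were higher and the medians were 0.05 and -0.02. Their summed level was 599, 519 and 864 CPM in the control, 1335, 1322 and 1346 CPM in p210 and 1270, 1268 and 1197 CPM in T315I. Control library 3 was again the highest of the control. Whether the replication genes changed more than the mitotic genes was not tested.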

How the data were processed

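Total RNA from hemocytes of 9 libraries was sequenced with Illumina TruSeq stranded total RNA and ribo-zero chemistry, per the labels' protocols. The authors deposited raw gene counts with 1 column per library. Build dm6 was used with HISAT2 2.1.0, FastQC 0.11.8 and featureCounts 2.0.1 from Subread, per the submitters' processing notes. Not given in the sources used here are the strand setting, the handling of multiply aligned reads and the release of the annotation. The wt columns were read as the W1118 control. Labels call the replicates biological.

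Gene models came from a BDGP6 annotation of the same assembly; 17554 of 17874 symbols matched. Of 997 protein-coding genes whose span other genes cover only when both strands count, 995 were at 0, so genes that lie wholly within another gene's span were in effect not counted. All exon bases of 23 of the 34 genes were free of other genes, and the lowest free share was 84.1% (Bub3). Reads of a gene and an antisense partner cannot be told apart. Levels per kb used the free exon bases. Spc25, lmgA, Cdc6, Cdc45, atilla, PPO1, Mst77F, ase and mira were covered and at 0.

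Genes were filtered by filterByExpr and tested in R 4.3.3 with edgeR 4.0.16 (TMM, robust quasi-likelihood fit, 1 mean per group over all libraries, two-sided, Benjamini-Hochberg over 9978 genes, threshold 0.05). SEs were taken as log2 fold change over the root of the F statistic. CPM are TMM-scaled. Alternatives used limma 3.58.1 and DESeq2 1.42.0. Replicate pairs differed by more than counting noise (chi-square per degree of freedom 13.4 to 90.7).

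The genes and lists were chosen with earlier results of these data known. Values in every library are given for the 2 genes of each function with the lowest adjusted p in p210, and always for CycA, CycB, Cdk1, stg, polo, cid, Top2 and pim. Of the further mitotic genes, up to 3 called ones of each sublist by adjusted p were eligible; vih and mei-S332 were named after their values were seen. Promoter sequences were not analysed here.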

Additional observations from a re-analysis of the deposited data

How the results depend on the processing

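Of the 34 genes, 16 to 21 were higher in p210 and 14 to 17 in T315I under each scaling, filter and tool tried except plasmatocyte marker scaling. In p210 and T315I the counts were 19 and 17 with RLE scaling, 18 and 15 with upper-quartile scaling, 16 and 14 with a filter of 5 CPM in 3 libraries, 21 and 17 with DESeq2 and 21 and 15 with libraries thinned to the smallest. With plasmatocyte marker scaling they were 8 and 9, and with only the 2 groups compared 16 and 16. Leaving out 1 library at a time gave 18 to 23 and 14 to 21. All genes called higher then numbered 2098 to 2962 in p210 and 1412 to 2339 in T315I, of 10093 to 10458 tested. Under the scalings, filters and tools other than plasmatocyte scaling, they numbered 1590 to 2749 and 1414 to 2133, of 7639 to 13458 tested. The counts of the 34 are to be read beside these. None of the 34 was lower in p210 in the reported fit. There, 1 gene, pim, was lower with upper-quartile or plasmatocyte scaling, the 5 CPM filter or DESeq2, and leaving out libraries gave 0 to 2. In T315I, pim was the 1 lower gene with RLE, upper-quartile or plasmatocyte scaling, TMM without genes of other tissues, the 5 CPM filter, DESeq2, limma-voom or thinning, and leaving out libraries gave 0 to 3. The cause was not tested.

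Plasmatocyte scaling turned the sign of genes that had been called, namely Cenp-C (-0.01 in p210, -0.06 in T315I), CycA in T315I (-0.07) and fzy in p210 (-0.01). Values above 0 went from 31 to 20 of the 34 in p210 and from 30 to 17 in T315I. It took the summed level of the 34 mitosis genes to 2891 CPM in p210 and 2738 CPM in T315I, and upper-quartile scaling took that of p210 to 3105 CPM. Each scaling changes the control sum as well, so these values cannot be set beside the control sum with TMM. Over all genes, those higher in p210 numbered 519 with plasmatocyte scaling, 1590 with the 5 CPM filter, which tests fewer genes, and 1595 with only the 2 groups compared; 406 were higher in T315I with plasmatocyte scaling. Between T315I and p210, 2 were higher and 4 lower with only the 2 groups compared, 9 and 26 with DESeq2, and 6, 2 and 0 were lower with plasmatocyte scaling, no filter and thinning; leaving out libraries gave 0 to 4 lower.

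No pairing of libraries by replicate number was seen, though 3 libraries per group are too few to settle it. Deviations from the group mean, in log2 CPM of tested genes, correlated at -0.32 to 0.17 between same-numbered libraries of different groups. In 4 of 18 matches of a library to another group, the best correlation was with its own number. With a replicate block 19 and 16 of the 34 genes were higher, none was lower, and none was called between T315I and p210. The smallest library, control library 1, held 5398746 reads, of which 11 were of cid. Whether depth in the control limits the precision for such scarce genes was not tested.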
